A study of Mus musculus with 20 samples.

Results

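The 40 genes described here are the hypoxia-inducible factor (HIF) subunits, their oxygen-sensing regulators, a set of HIF target genes, and the glucose transporters and enzymes that carry glucose to lactate. They were taken by gene symbol from a list whose rule names no measured value, and all 40 were found in both deposited tables, among 19722 genes in the table of slices given serum for 4 h and 51912 identifiers in the table of slices given serum for 24 h. Of the 40, 17 belong to the HIF pathway and its targets and 23 to glucose transport and glycolysis, in 11 groups by role. All 40 passed the filters on low values.

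The libraries came from forebrain slices of 4-day-old mice (postnatal day 4) kept in culture and given medium with 5% horse serum, and RNA-seq was run on 20 of them. At 4 h there were 3 libraries labelled TSG-6-/- (KO), TSG-6 being the hyaluronan-binding product of the gene Tnfaip6, and 3 labelled TSG-6+/+ (WT). At 24 h there were 4 KO-labelled and 3 heterozygous (Het) libraries of females, and 4 KO-labelled and 3 Het libraries of males; here the treatment field speaks of WT slices, and the titles, which say heterozygous, were used. All slices had been cut, cultured and given serum, and no serum-free slice is part of these comparisons. The medium is named differently in the series text (HBSS) and in the sample protocols (DMEM). The Tnfaip6 allele is not described in the labels, and they do not tie libraries to animals, so a p-value here reflects spread between libraries that could be technical.

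HIF is a transcription factor made of an oxygen-regulated alpha subunit and a constant beta subunit. When oxygen is plentiful, prolyl hydroxylases (the Egln enzymes) mark the alpha subunit for destruction, and when oxygen is scarce the subunit lasts and the complex binds short hypoxia response elements beside its targets. Those targets include angiogenic factors, mitophagy receptors, pH-regulating enzymes and most steps of glycolysis, the pathway that makes ATP from glucose without oxygen. In brain, glucose enters through Slc2a1 of endothelium and astrocytes and Slc2a3 of neurons, and a part of the alpha subunits' control acts on protein and is not seen in RNA.

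The core of the hypoxia response element is spelled ACGTG or GCGTG, and both spellings were searched on both strands of RefSeq promoter windows of GRCm38.p6, which run from 250 bases before to 50 bases after a gene's start. A window was listed for 36 of the 40 genes, the 4 without being Epas1, Bnip3l, Ndrg1 and Slc2a3. ACGTG was found in 20 of the 36 windows (55.6%), against 19.6% of all 32851 windows, GCGTG in 21 (58.3%) against 32.4%, and either in 28 (77.8%) against 43.8%. The 36 windows were also richer in CG pairs, with a median of 20.5 against 7 in all windows, and both motifs hold a CG pair. A match is a description of letters and not of binding, and the motifs can overlap on opposite strands, as where CACGTG reads ACGTG both ways. Windows of 6 genes are printed below with matches to either motif, on either strand, in capitals: Adm, Ankrd37, Slc16a3 and Slc2a1 because they were among the 5 genes with the smallest p for a relation with Vegfa from library to library at 24 h, and Pgk1 and Ldha because they were among the steadiest. The other of those 5 genes, Gpi1, is not printed, and its window holds neither motif. Pkm and Hk1, which were steadier than Ldha, are not printed either, and their windows hold neither motif. The Vegfa window holds neither motif, and the gene start it was built on lies 1021 bases from the start of the gene's principal transcript. That distance was 8661 bases for Aldoa and 694 for Gapdh, both among the 36. The windows lie at chr7:110627407-110627706 on the plus strand (Adm), chr8:45999801-46000100 on the minus strand (Ankrd37), chr11:120948817-120949116 on the plus strand (Slc16a3), chr4:119108495-119108794 on the plus strand (Slc2a1), chrX:106186850-106187149 on the plus strand (Pgk1) and chr7:46845554-46845853 on the plus strand (Ldha), and all are written 5' to 3' on the strand of the gene.
Adm: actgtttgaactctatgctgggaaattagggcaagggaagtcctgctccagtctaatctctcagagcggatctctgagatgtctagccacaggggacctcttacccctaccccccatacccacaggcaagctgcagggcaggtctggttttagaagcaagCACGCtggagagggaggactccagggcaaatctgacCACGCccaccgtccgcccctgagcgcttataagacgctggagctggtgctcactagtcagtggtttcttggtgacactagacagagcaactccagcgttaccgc
Ankrd37: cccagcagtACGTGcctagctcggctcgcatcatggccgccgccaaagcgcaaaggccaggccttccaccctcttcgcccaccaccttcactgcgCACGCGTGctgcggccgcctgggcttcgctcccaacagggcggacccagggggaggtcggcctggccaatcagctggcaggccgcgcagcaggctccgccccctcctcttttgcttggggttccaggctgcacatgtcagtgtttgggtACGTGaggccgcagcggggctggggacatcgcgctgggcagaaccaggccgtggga
Slc16a3: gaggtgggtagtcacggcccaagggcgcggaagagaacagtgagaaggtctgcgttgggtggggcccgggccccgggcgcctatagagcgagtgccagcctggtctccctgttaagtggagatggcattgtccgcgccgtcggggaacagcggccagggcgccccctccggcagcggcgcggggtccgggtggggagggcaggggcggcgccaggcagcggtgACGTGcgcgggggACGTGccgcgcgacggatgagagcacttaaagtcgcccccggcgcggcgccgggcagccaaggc
Slc2a1: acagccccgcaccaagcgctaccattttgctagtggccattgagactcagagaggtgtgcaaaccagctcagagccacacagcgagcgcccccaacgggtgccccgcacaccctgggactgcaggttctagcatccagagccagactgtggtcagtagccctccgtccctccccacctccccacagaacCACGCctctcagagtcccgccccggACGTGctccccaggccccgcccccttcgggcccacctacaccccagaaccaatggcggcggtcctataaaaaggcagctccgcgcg
Pgk1: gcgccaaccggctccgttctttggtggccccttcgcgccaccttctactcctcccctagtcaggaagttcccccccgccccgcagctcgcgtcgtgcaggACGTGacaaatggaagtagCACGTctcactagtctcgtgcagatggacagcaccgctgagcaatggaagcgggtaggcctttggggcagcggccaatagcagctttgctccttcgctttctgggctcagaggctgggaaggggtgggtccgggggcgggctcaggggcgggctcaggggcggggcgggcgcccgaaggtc
Ldha: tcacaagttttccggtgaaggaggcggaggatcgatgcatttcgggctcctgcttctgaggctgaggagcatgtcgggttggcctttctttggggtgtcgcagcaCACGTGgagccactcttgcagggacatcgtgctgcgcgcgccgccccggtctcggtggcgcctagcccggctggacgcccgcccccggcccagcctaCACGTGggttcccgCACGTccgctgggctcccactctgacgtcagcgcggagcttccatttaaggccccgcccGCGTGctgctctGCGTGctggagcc

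Tnfaip6 itself did not mark the KO-labelled libraries. At 4 h it had 40.6 to 83.3 normalised reads in KO-labelled libraries and 67.2 to 92.6 in WT libraries, and at 24 h it had 5.14 to 8.09 CPM (reads scaled to the library total) in KO-labelled females, 3.43 to 5.54 in Het females, 5.64 to 7.87 in KO-labelled males and 3.93 to 6.42 in Het males. The groups are therefore named by label throughout, and every direction below is one between labels. Libraries held 11411532 to 15030171 reads at 4 h and 8482933 to 18051300 at 24 h. None of the 12 neuron or 7 astrocyte markers was at 0 in any library. KO-labelled female 2 carried Y-linked reads and no Xist reads. KO-labelled females 1 and 3 and KO-labelled male 3 held choroid plexus RNA, with summed marker levels of 1536, 2794 and 493 CPM against 12.9 to 23.5 CPM in the other 11 libraries. Het male 3 had the lowest summed neuron (2654 CPM) and astrocyte (2983 CPM) markers at 24 h. These are bulk samples, in which fewer cells of a type and less RNA per cell cannot be told apart.

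Per kilobase of exon, the 12 most abundant of the 40 genes at 24 h in KO-labelled libraries were all glycolytic. At 4 h the HIF target Ddit4 ranked 11, at 69.2 RPKM. The length used was that of all annotated exons of a gene joined, so ranks by RPKM depend on the annotation. At 24 h the highest level in KO-labelled libraries was that of Gapdh, the enzyme that oxidises glyceraldehyde phosphate, at 322 ± 16 RPKM (CPM per kilobase of exon; SD, n = 8), against 321 ± 15 RPKM in Het libraries (n = 6). Aldoa, the muscle-type aldolase, followed at 194 ± 11 RPKM in KO-labelled libraries and 193 ± 8.35 in Het libraries, and Pkm, pyruvate kinase, at 132 ± 5.47 RPKM in KO-labelled libraries and 131 ± 6.03 RPKM in Het libraries. Pkm and the lactate dehydrogenase subunits Ldhb (130 ± 7.15 RPKM) and Ldha (127 ± 4.95 RPKM) had overlapping ranges in KO-labelled libraries. In CPM, without length, Ldha had a mean of 421 and Ldhb of 204 in these libraries. The isozymes of some steps differed widely in level per kilobase. Hk1, the hexokinase of resting brain, had 40.8 ± 1.74 RPKM in KO-labelled libraries and 39.8 ± 1.72 in Het libraries, whereas Hk2, the inducible hexokinase, had 2.39 ± 0.593 RPKM in KO-labelled and 2.21 ± 0.219 in Het libraries. Among phosphofructokinase subunits Pfkm had 79.2 ± 3.33 RPKM in KO-labelled libraries, Pfkp 19.0 ± 2.16 and Pfkl 16.8 ± 1.59, the last 2 with overlapping ranges. The exon length was 3340 bases for Pfkm and 13401 for Pfkp. In CPM, without length, Pfkm (246 to 280) and Pfkp (219 to 313) overlapped in KO-labelled libraries. Pfkfb3 (15.3 ± 1.12 RPKM) lay above Pfkfb4 (5.01 ± 0.344 RPKM) among the bifunctional enzymes that set fructose 2,6-bisphosphate.

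Within the HIF arm, the mitophagy receptor Bnip3l (44.5 ± 0.986 RPKM in KO-labelled and 43.7 ± 2.82 in Het libraries at 24 h) and Ddit4, an inhibitor of mTORC1 signalling (44.5 ± 5.01 RPKM in KO-labelled and 45.3 ± 2.87 in Het libraries), were the most abundant. The alpha subunit genes Hif1a (19.4 ± 3.02 RPKM in KO-labelled libraries) and Epas1 (15.8 ± 1.74 RPKM) had overlapping ranges (16.4 to 25.9 and 14.5 to 19.3 RPKM). Hif1a was above Epas1 in each KO-labelled library. Mxi1, an antagonist of Myc (13.6 ± 0.738 RPKM), Bnip3 (13.5 ± 1.31 RPKM) and Vegfa, the vascular growth factor (13.0 ± 1.27 RPKM), lay within each other's spread. Several targets were near the bottom of the panel. Ankrd37, a small ankyrin-repeat protein, had 0.975 ± 0.369 RPKM in KO-labelled and 1.19 ± 0.443 in Het libraries. Car9, the membrane-bound carbonic anhydrase of hypoxic tumours, had 1.27 ± 0.664 RPKM in KO-labelled and 0.969 ± 0.476 in Het libraries. Adm, the vasodilator adrenomedullin, had 3.54 ± 1.29 RPKM in KO-labelled and 2.99 ± 0.763 in Het libraries. Ankrd37 rested on 5 to 42 reads a library at 24 h and Car9 on 9 to 110, so their levels carry a wide counting error.

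After 4 h of serum, none of the 40 genes passed the threshold of an adjusted p of 0.05 between KO-labelled and WT slices (limma), against 7 of 15181 genes tested, or 0.0461%. On the whole reads recovered from the table, DESeq2 called 146 of 19721 genes and edgeR 7 of 15256, with 0 members in either. At an unadjusted p under 0.05 there were 6 of 40, against 13.9% of all genes: 3 were higher in KO-labelled slices (7.25% of all genes) and 3 lower (6.65%). The values of KO-labelled and WT libraries did not overlap for 8 genes, against 19.0% of all genes: Ndrg1, Hk1, Pfkfb4 and Tpi1 were higher in KO-labelled libraries (4 genes, against 10.1% of all genes) and Vegfa, Car9, Hk2 and Aldoc lower (4 genes, against 8.88%). The median log2 fold change was 0.025 over the 40 genes and 0.0024 over all genes tested. The HIF arm had a median of -0.077, with 11 of 17 genes negative, and the glycolytic arm a median of 0.045, with 16 of 23 positive. Of all 15181 genes tested 7680 were positive, and their quartiles were -0.135 and 0.109, so both medians lay between them. All 6 enzymes of lower glycolysis, Gapdh, Pgk1, Pgam1, Eno1, Eno2 and Pkm, had positive fold changes, of 0.018 to 0.12, and none of them passed.

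**Figure D1:**
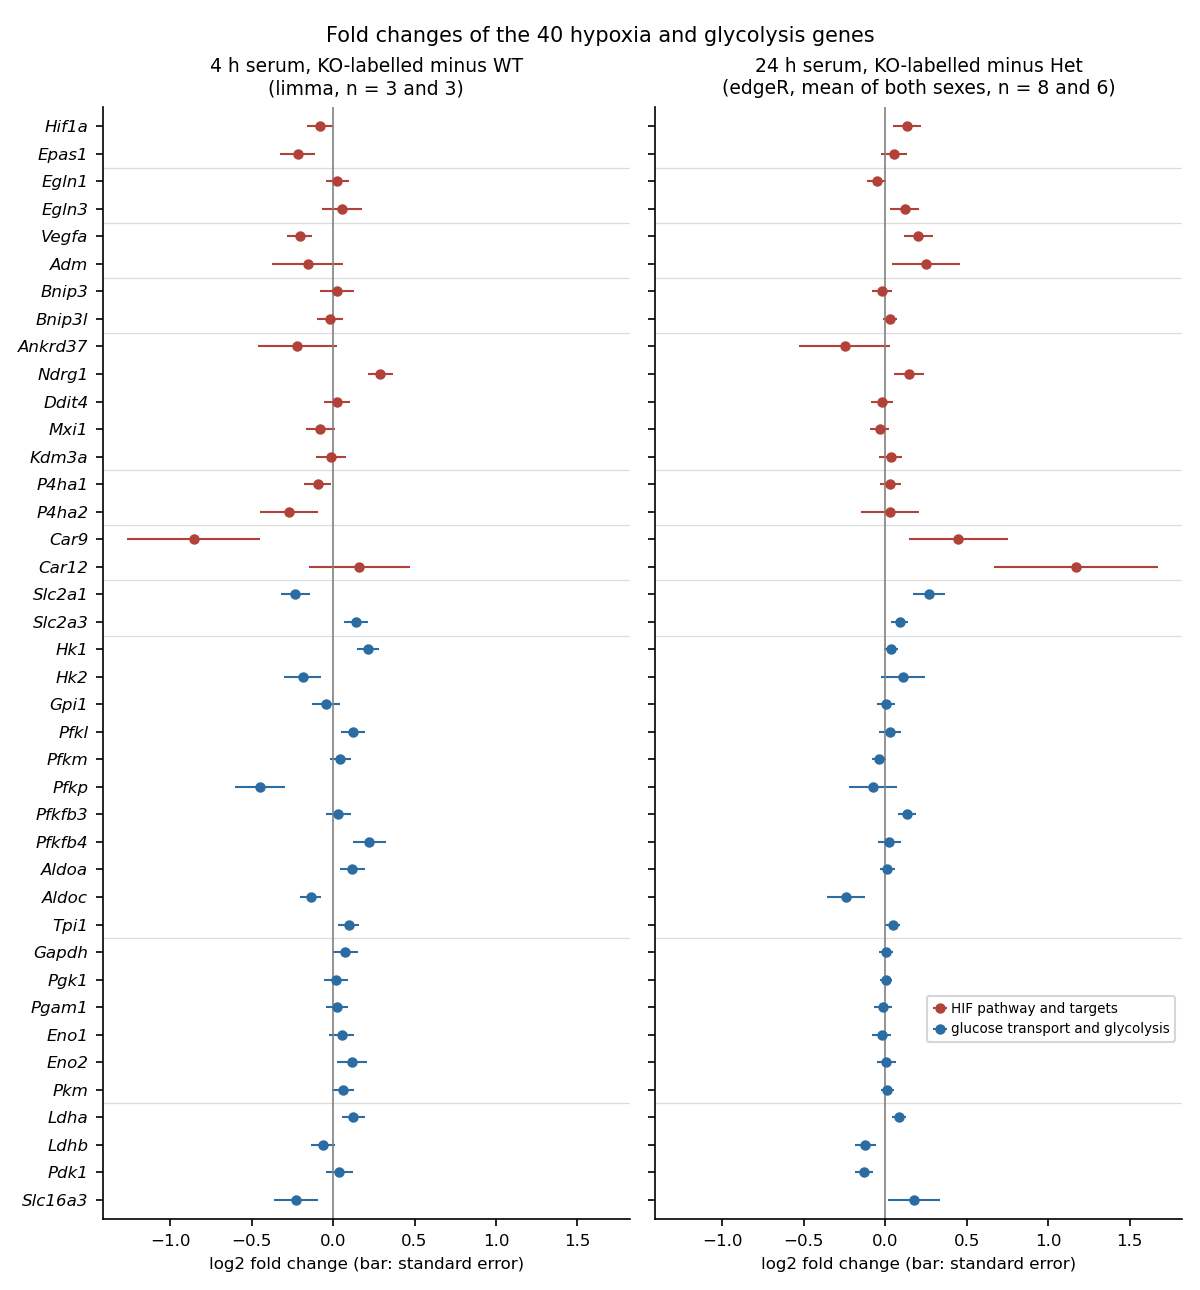
Log2 fold change of each of the 40 genes with its standard error, KO-labelled minus WT at 4 h (left) and KO-labelled minus Het at 24 h averaged over the sexes (right), in order of role, with lines between the 11 role groups. Most enzymes of lower glycolysis lie close to 0 with short bars, Car9 and Car12 have the longest bars, and Vegfa and Slc2a1 lie left of 0 at 4 h and right of 0 at 24 h.

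Among HIF targets, Vegfa (ENSMUSG00000023951, chr17:46016993-46032369 of GRCm38, minus strand) had 1197, 1023 and 1105 normalised reads in KO-labelled libraries 1 to 3, against 1321, 1254 and 1252 in WT libraries 1 to 3. All 3 KO-labelled values were lower than all 3 WT values. Its log2 fold change was -0.20 ± 0.08 (SE, limma adjusted p = 0.257). Ndrg1 (ENSMUSG00000005125, chr15:66929318-66969640, minus strand), a stress-responsive gene of Schwann cells and glia that HIF induces, had 1041, 1106 and 972 normalised reads in KO-labelled libraries and 876, 861 and 813 in WT libraries. All KO-labelled values were higher, and the log2 fold change of 0.29 ± 0.08 had the smallest p of the 40 genes (limma adjusted p = 0.161). Car9, with 12.1, 6.18 and 7.99 normalised reads in KO-labelled libraries against 23.0, 14.8 and 12.2 in WT libraries, rested on 7 to 26 reads a library.

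For glucose entry, Slc2a1 (ENSMUSG00000028645, chr4:119108711-119137983, plus strand) had 1824, 1516 and 1516 normalised reads in KO-labelled libraries and 1878, 1746 and 2075 in WT libraries. It was lower in the KO-labelled library in 3 of 3 same-numbered pairs, although KO-labelled library 1 lay above WT library 2. The log2 fold change was -0.23 ± 0.09 (limma adjusted p = 0.267, and 0.202 with the number as a block). Slc2a3, the neuronal transporter, had 2642, 2482 and 2599 normalised reads in KO-labelled libraries and 2295, 2540 and 2182 in WT libraries, also overlapping. All 8 markers of endothelium and mural cells had negative fold changes at 4 h, with a summed level of 4245 to 4447 normalised reads in KO-labelled and 4954 to 5693 in WT libraries, and 9 of 12 neuron markers had positive ones, summing to 49614 to 51702 in KO-labelled and 43442 to 45485 in WT libraries. All 6 meninges markers were negative, with a median log2 fold change of -0.60 and sums of 1624 to 2549 in KO-labelled and 2237 to 2824 in WT libraries. All 7 astrocyte markers were negative too, with a median of -0.076 and sums of 22336 to 22943 in KO-labelled and 22888 to 27106 in WT libraries. So were all 5 oligodendrocyte lineage markers (median -0.13). Of 5 erythroid markers 4 were negative (median -0.21), of 5 dividing-cell markers 4 (median -0.25) and of 7 microglia markers 5 (median -0.031). No marker of these lists was at 0 in any library. Their part in the values of Slc2a1, Vegfa and the other members was not tested.

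At the entry steps of glycolysis, Hk1 (ENSMUSG00000037012, chr10:62268855-62379908, minus strand) had 5303, 4675 and 5108 normalised reads in KO-labelled libraries, against 4362, 4411 and 4211 in WT libraries. The groups did not overlap, and the log2 fold change was 0.21 ± 0.07 (limma adjusted p = 0.193). It reached a limma adjusted p of 0.0493 when KO-labelled library 2, the lowest of its group, was left out, a fit that called 211 of 15207 genes. Pfkp (ENSMUSG00000021196, chr13:6579768-6648777, minus strand), the platelet-type phosphofructokinase subunit, had 4414, 2764 and 3952 normalised reads in KO-labelled libraries 1 to 3 and 5880, 3995 and 5190 in WT libraries 1 to 3. Library 1 was highest and library 2 lowest under both labels, and KO-labelled library 1 lay above WT library 2. The log2 fold change of -0.45 ± 0.15 did not pass without the pairing of libraries by number (limma adjusted p = 0.230) and passed with the number as a block (SE 0.06, limma adjusted p = 0.0154), in a fit that called 38 of 15181 genes, Pfkp being the only member among them. Without KO-labelled library 2 the log2 fold change was -0.25. Pfkfb4 (ENSMUSG00000025648, chr9:108991778-109032228, plus strand) had 354, 326 and 302 normalised reads in KO-labelled libraries and 274, 284 and 283 in WT libraries, without overlap, and a log2 fold change of 0.22 ± 0.10 (limma adjusted p = 0.352). The last value was 0.15 without the libraries, 1 of each label, that carried Xist reads.

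**Figure D2:**
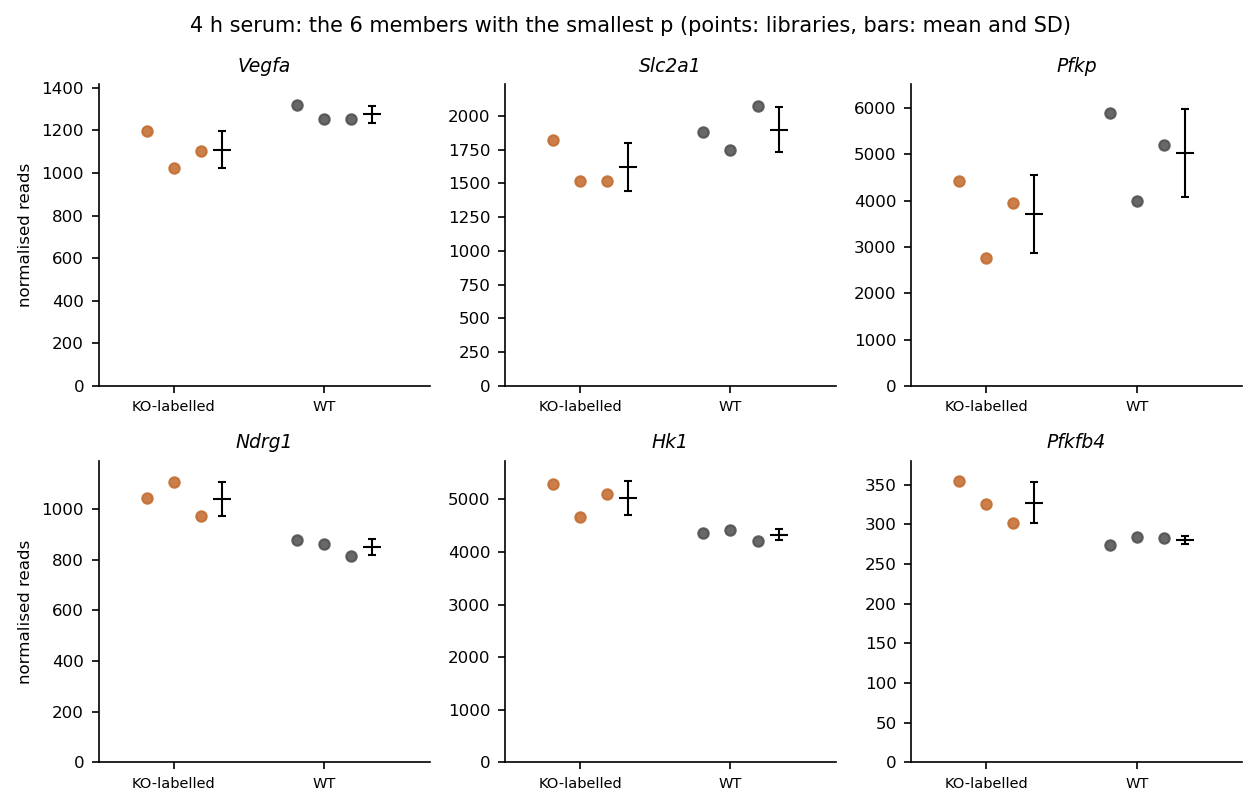
Normalised reads in each 4 h library for the 6 genes with the smallest p, 3 KO-labelled libraries left of 3 WT libraries, with the mean and SD beside the points and the axis from 0. Vegfa is lower and Ndrg1, Hk1 and Pfkfb4 are higher in every KO-labelled library than in every WT library, while Slc2a1 and Pfkp overlap.

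Other pathway genes, from lists that leave out the 40, had no calls at 4 h either. Of 45 further HIF pathway genes and targets 43 were tested, 0 passed, and their median log2 fold change was -0.058, with 1 higher and 6 lower at an unadjusted p under 0.05, beside 7.25% and 6.65% of all genes. The smallest p belonged to Wsb1, a ubiquitin ligase subunit (-0.54 ± 0.10, limma adjusted p = 0.0900), Stc1, the calcium-regulating stanniocalcin (-0.44 ± 0.11, adjusted p = 0.149), and Hmox1, heme oxygenase (-0.34 ± 0.12, adjusted p = 0.243). Of 43 further genes of glycolysis, pyruvate and lactate 39 were tested, 0 passed, the median was -0.081, and 1 was higher and 7 were lower at an unadjusted p under 0.05, beside the same shares of all genes. They were led by Pdk4, a pyruvate dehydrogenase kinase (-0.55 ± 0.11, limma adjusted p = 0.0935), Slc16a1, a lactate transporter of endothelium and glia (-0.43 ± 0.10, adjusted p = 0.129), and Pdp2, a pyruvate dehydrogenase phosphatase (0.33 ± 0.11, adjusted p = 0.214).

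After 24 h of serum, none of the 40 genes passed between KO-labelled and Het slices averaged over the sexes (edgeR), and none of 16013 genes did, or 0.0%. DESeq2 called 10 genes, none of them among the 40. At an unadjusted p under 0.05 there were 5 members, against 6.62% of all genes: 4 were higher in KO-labelled slices (3.82% of all genes) and 1 lower (2.8%). No member's KO-labelled and Het values were free of overlap, against 0.0437% of all genes. The median log2 fold change was 0.028 over the 40 genes and 0.000029 over all genes tested. Of the 40 fold changes 28 were positive, beside 8008 of the 16013, and the 6 enzymes of lower glycolysis lay between -0.022 and 0.013.

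Slc2a1 had 81.3, 71.0, 113 and 89.3 CPM in KO-labelled females 1 to 4 and 72.2, 62.8 and 72.9 CPM in Het females 1 to 3. In males it had 98.4, 70.1, 80.7 and 88.9 CPM in KO-labelled libraries and 72.1, 67.1 and 85.7 CPM in Het libraries. KO-labelled female 3 was the highest of all 14 libraries, and the groups overlapped in both sexes. Its log2 fold change, 0.27 ± 0.10 averaged over the sexes (edgeR adjusted p = 0.738), had the opposite sign to that at 4 h, where the control was WT and not Het. Vegfa ran the same way, with 52.8, 50.5, 64.4 and 53.7 CPM in KO-labelled females and 44.2, 41.7 and 48.6 CPM in Het females, and with 53.5, 52.8, 53.9 and 64.5 CPM in KO-labelled males and 40.7, 53.4 and 63.7 CPM in Het males. All KO-labelled females were above all Het females, and the male groups overlapped. The averaged log2 fold change of Vegfa was 0.20 ± 0.09 (edgeR adjusted p = 0.738) and was 0.13 without Het male 1, the lowest library. The difference between the 4 h and the 24 h contrasts was not tested, because the tables differ in time and in control genotype.

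On the metabolic side, Pfkfb3 (ENSMUSG00000026773, chr2:11471433-11554077, minus strand), whose product raises fructose 2,6-bisphosphate, had 106 to 129 CPM in the 8 KO-labelled libraries (median 116) and 94.0 to 119 CPM in the 6 Het libraries (median 106). The log2 fold change of Pfkfb3 was 0.13 ± 0.06 (edgeR adjusted p = 0.738). Pdk1 (ENSMUSG00000006494, chr2:71873224-71903858, plus strand), a kinase that inhibits pyruvate dehydrogenase and so the conversion of pyruvate to acetyl-CoA, had 51.3 to 65.6 CPM in KO-labelled libraries (median 58.9) and 59.6 to 69.9 CPM in Het libraries (median 64.2), with a log2 fold change of -0.13 ± 0.06 (edgeR adjusted p = 0.738). Both genes overlapped between labels. Aldoc (ENSMUSG00000017390, chr11:78322968-78327781, plus strand), the aldolase of astrocytes, had 113 to 205 CPM in KO-labelled libraries (median 140) and 131 to 196 CPM in Het libraries (median 177), again overlapping. Its log2 fold change was -0.24 ± 0.12 (edgeR adjusted p = 0.758). Astrocyte markers ranged from 3295 to 4213 CPM in KO-labelled and from 2983 to 5279 CPM in Het libraries, and 6 of 7 had negative fold changes; their part in the Aldoc value was not tested.

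Car12 (ENSMUSG00000032373, chr9:66713686-66766845, plus strand), a carbonic anhydrase that choroid plexus epithelium also makes, showed the largest difference of the panel at 24 h. It had 10.7, 1.68, 21.0 and 2.30 CPM in KO-labelled females 1 to 4 and 2.72, 2.13 and 3.89 CPM in Het females. In males it had 3.44, 1.07, 6.77 and 3.50 CPM in KO-labelled libraries and 3.45, 2.17 and 1.46 CPM in Het libraries. The 3 libraries above 4 CPM, KO-labelled females 1 and 3 and KO-labelled male 3, were the 3 with choroid plexus RNA named above, in the same order of level. With all libraries the log2 fold change was 1.17 ± 0.50 (edgeR adjusted p = 0.738), it was 0.74 without KO-labelled female 3, and without those 3 libraries it was -0.15 ± 0.31 (edgeR adjusted p = 0.960). The Slc2a1 value without the 3 was 0.21 ± 0.10 (edgeR adjusted p = 0.823).

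**Figure D3:**
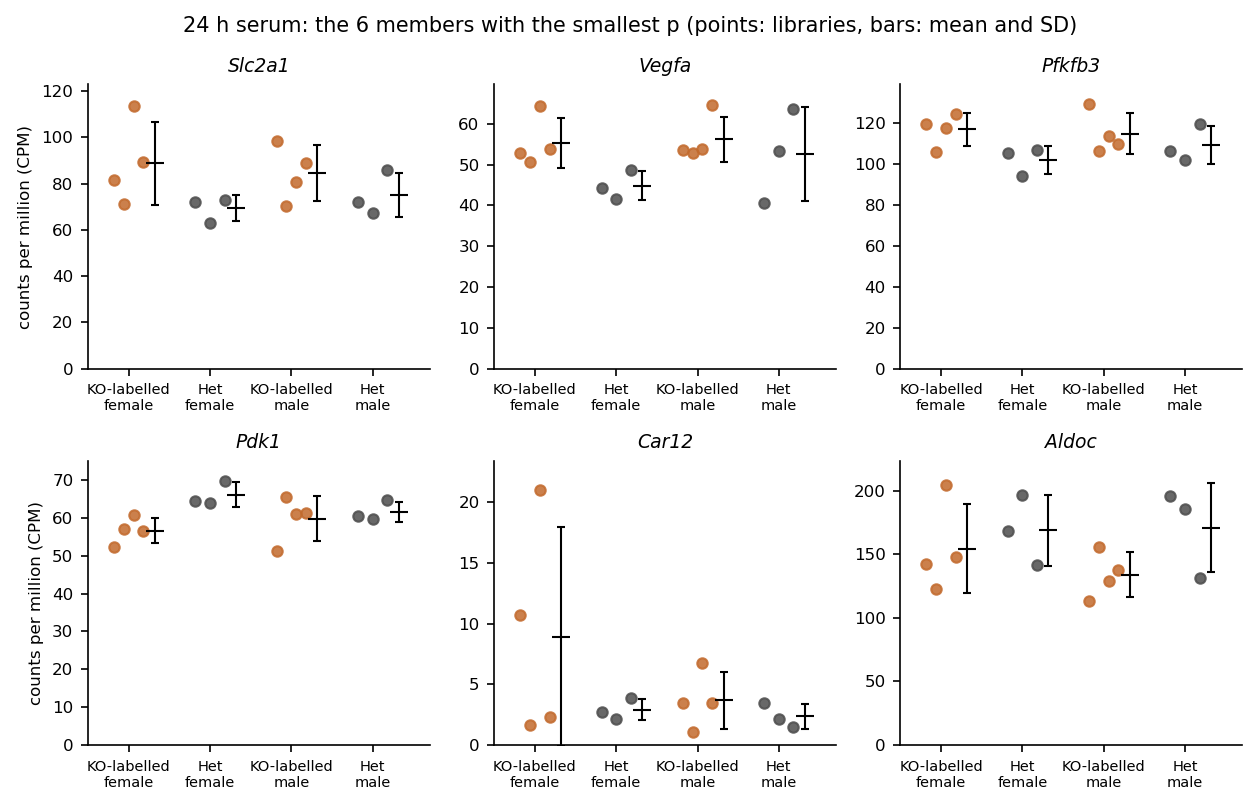
CPM in each 24 h library for the 6 genes with the smallest p in the contrast averaged over sexes, with KO-labelled libraries left of Het libraries in females and then in males, the mean and SD beside the points and the axis from 0. For Car12, KO-labelled females 1 and 3 and KO-labelled male 3 stand above the other 11 libraries, and the other 5 genes overlap between labels in at least 1 sex.

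KO-labelled female 2, whose sex-linked reads go against its label, was counted as female in the contrasts by sex, and without it 0 members passed in each of them. Taken by sex, no member passed either in edgeR or in DESeq2, and in edgeR no gene did in females or in males (0.0% each). In females 6 members had an unadjusted p under 0.05, against 4.1% of all genes, 5 higher (against 2.06%) and 1 lower (against 2.04%). The labels did not overlap for 5 members, against 4.7% of all genes: Vegfa, Egln3, an oxygen-sensing hydroxylase, and Pfkp were higher in every KO-labelled library (3, against 2.3%), and Pdk1 and Ldhb lower (2, against 2.4%). The smallest p were those of Car9 (log2 fold change 1.23 ± 0.43), Pdk1 (-0.22 ± 0.08) and Slc2a1 (0.36 ± 0.14), all with an edgeR adjusted p of 1.00. Without KO-labelled female 3 the values of Car9 and Slc2a1 were 0.79 and 0.22. In males 2 members had an unadjusted p under 0.05, against 6.87% of all genes, and Kdm3a, a histone demethylase, and Pgam1, phosphoglycerate mutase, did not overlap between labels, 2 genes against 7.18%. The smallest p in males were those of Hif1a (0.26 ± 0.12, edgeR adjusted p = 0.719), Aldoc (-0.35 ± 0.17, adjusted p = 0.719) and Pfkp (-0.33 ± 0.21, adjusted p = 0.776). Hif1a was 0.13 without KO-labelled male 1, which at 153 CPM lay above the 106 to 121 CPM of the other KO-labelled males.

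Pfkp turned on 1 library. Het male 3 had 522 CPM, against 219, 266, 244 and 313 CPM in KO-labelled males and 236 and 230 CPM in the other Het males, while KO-labelled females had 231 to 267 CPM and Het females 207 to 229 CPM. Without Het male 3 the male log2 fold change was 0.16. Pitrm1, which lies on the opposite strand and overlaps Pfkp, had an averaged log2 fold change of -0.015 ± 0.053, and reads of the 2 genes cannot be told apart where they overlap, since no source used here gives the strand setting. The test of whether the label contrast differed between males and females gave no call in edgeR among the members or among all genes (0.0%), and none among the members in DESeq2, and 1 member had an unadjusted p under 0.05, against 3.86%. It was led by Car9 (-1.56 ± 0.60), P4ha2, a collagen prolyl hydroxylase (-0.74 ± 0.36), and Pfkp (-0.52 ± 0.29), each with an edgeR adjusted p of 0.977. Without Het male 3 the values of P4ha2 and Pfkp were -0.29 and -0.024. Males minus females gave 0 members past the threshold in edgeR, against 0.0187% of all genes, and in DESeq2; no member was free of overlap, against 0.0375%, and 1 member at an unadjusted p under 0.05, against 4.42%. There Pfkp led (0.33 ± 0.15, and 0.081 without Het male 3), followed by Car12 (-0.80 ± 0.50, -0.36 without KO-labelled female 3, and 0.067 without the 3 libraries with choroid plexus RNA) and Slc2a3 (0.081 ± 0.053, and 0.040 without Het male 3), each with an edgeR adjusted p of 0.998. Pgk1, on the X chromosome, had 249 to 264 CPM in KO-labelled males and 253 to 261 in Het males, beside 248 to 274 in KO-labelled females and 246 to 260 in Het females.

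The further pathway lists had no call in the averaged contrast at 24 h. The HIF list (44 of 45 tested) had a median log2 fold change of 0.023, with 2 higher and 1 lower at an unadjusted p under 0.05, beside 3.82% and 2.8% of all genes. These were Bhlhe40, a transcriptional repressor (0.16 ± 0.07, edgeR adjusted p = 0.738), Cited2, which competes with HIF for its coactivator (0.18 ± 0.09, adjusted p = 0.753), and Vhl, the ubiquitin ligase subunit that destroys HIF alpha (-0.12 ± 0.05, adjusted p = 0.738). The glycolysis list (41 of 43 tested) had a median of -0.017, again with 2 higher and 1 lower. Slc16a7 (0.21 ± 0.09, edgeR adjusted p = 0.738) and Slc16a1 (0.17 ± 0.08, adjusted p = 0.753), both monocarboxylate transporters, and Tigar, a fructose bisphosphatase (-0.26 ± 0.10, adjusted p = 0.738), were the 3.

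Spread from library to library at 24 h had a lower median over the glycolytic than over the HIF arm. The SD of log2 CPM within the 4 groups, over 14 libraries, had a median of 0.10 over the 23 glycolytic genes and 0.17 over the 17 HIF pathway genes, beside 0.16 over all genes tested. It was smallest for Pgk1, phosphoglycerate kinase (0.048), Pkm (0.055), Hk1 (0.064) and Ldha (0.066). It was largest for Car12 (1.11), Car9 (0.58), Ankrd37 (0.54), Adm (0.42), P4ha2 (0.36), Slc16a3, the lactate exporter of glycolytic cells (0.35), and Pfkp (0.33). Car12, Car9, Ankrd37, Adm and P4ha2 had under 10 CPM in most libraries, where counting error adds to the spread. KO-labelled female 3 stood highest within its group, with 20 of 23 glycolytic and 11 of 17 HIF pathway genes above the mean of KO-labelled females, and KO-labelled female 1 lowest, with 2 of 23 and 3 of 17.

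**Figure D4:**
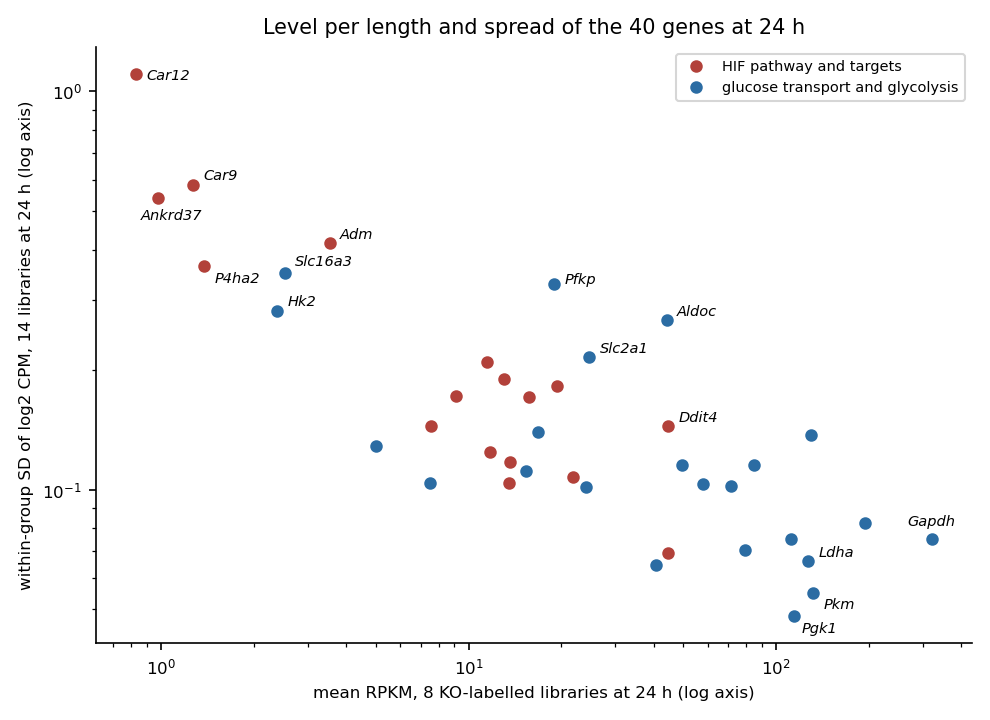
Within-group SD of log2 CPM over the 14 libraries at 24 h (vertical log axis) against mean RPKM in the 8 KO-labelled libraries (horizontal log axis), 1 point a gene, coloured by arm. Genes of low level such as Car12, Car9 and Ankrd37 lie at the top left, Pgk1 and Pkm at the bottom right, and Pfkp and Aldoc lie above other genes of their level.

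Relations with Vegfa from library to library were computed at 24 h, and that of Adm passed the adjustment. Vegfa was chosen for this after its values were seen, so the relations are a description first. Each value was taken as its deviation from its own group's mean log2 CPM, and 48 relations with Vegfa were computed over 14 libraries, in each of which both values come from 1 library, to the other 39 members and 9 lists of markers. Adm had Pearson r = 0.82 (exact permutation within groups, two-sided, p = 0.000627, adjusted over the 48 relations 0.0301) and Spearman rho = 0.79 (p = 0.00270, adjusted 0.0648), and r = 0.90 without the 2 libraries farthest from the median of Vegfa, Het males 1 and 3. Ankrd37 had r = 0.77 (p = 0.00646, adjusted 0.126) and rho = 0.84 (p = 0.00231, adjusted 0.0648), and r = 0.67 without those 2. Slc16a3 had r = 0.67 (p = 0.00786, adjusted 0.126) and rho = 0.69 (p = 0.0101, adjusted 0.162), and Slc2a1 r = 0.60 (p = 0.0416, adjusted 0.399) and rho = 0.64 (p = 0.0334, adjusted 0.321). Gpi1 lay between them (r = 0.71, p = 0.0236, adjusted 0.284; rho = 0.70, p = 0.0258, adjusted 0.310). Without those 2 libraries r was 0.68 for Slc16a3, 0.63 for Gpi1 and 0.67 for Slc2a1. Ldha (r = 0.054, p = 0.922, adjusted 0.958; rho = 0.14, p = 0.726, adjusted 0.944) and Pgk1 (r = 0.12, p = 0.691, adjusted 0.870; rho = -0.059, p = 0.863, adjusted 0.944), whose windows above also hold matches, did not pass, and their own spread was small. None of the 9 marker lists passed, the nearest being microglia (r = -0.53, p = 0.113, adjusted 0.488; rho = -0.58, p = 0.0743, adjusted 0.443). Adm rested on 31 to 177 reads a library.

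Adm had 5.02, 5.51, 9.94 and 6.11 CPM in KO-labelled females 1 to 4 and 5.59, 3.58 and 6.03 CPM in Het females, and 4.54, 3.68, 3.71 and 7.31 CPM in KO-labelled males and 3.74, 3.88 and 6.22 CPM in Het males. In each of the 4 groups the library with the highest Vegfa CPM also had the highest Adm CPM: KO-labelled female 3, Het female 3, KO-labelled male 4 and Het male 3. These 2 male libraries share the number 4 in the sample descriptions, while the 2 female ones do not share a number there. Whether a shared number marks a pair is not given. Ankrd37 had 1.35, 1.12, 1.80 and 2.06 CPM in KO-labelled females, 1.96, 1.14 and 1.74 CPM in Het females, 1.22, 0.593, 1.48 and 2.39 CPM in KO-labelled males and 0.985, 2.39 and 2.72 CPM in Het males. It was highest in KO-labelled male 4 and Het male 3 in their groups, and in KO-labelled female 4 and Het female 1 in the female groups. The span of the Ankrd37 gene overlaps genes on the opposite strand, Ufsp2 and Lrp2bp, and overlap of exons was not examined.

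KO-labelled slices were the only kind present at both times, in separate tables, so that time and table cannot be told apart and no test was made. On CPM, the ranges of the 8 libraries at 24 h and the 3 at 4 h did not overlap for 9 of the 40 genes, against 33.5% of 15090 genes. For 6 genes the 24 h range was higher, against 24.1% of genes. Bnip3l had a mean of 172 CPM at 24 h and 110 CPM at 4 h, and its relative Bnip3 had 30.6 CPM at 24 h and 23.4 CPM at 4 h. Mxi1 had 93.1 CPM at 24 h and 71.1 CPM at 4 h. Gpi1, glucose phosphate isomerase, had 373 CPM at 24 h and 279 CPM at 4 h, Pdk1 had 58.2 CPM at 24 h and 46.6 CPM at 4 h, and Car9 had 2.92 CPM at 24 h and 0.672 CPM at 4 h. For 3 genes the 24 h range was lower, against 9.41% of genes. Vegfa had 55.8 ± 5.45 CPM at 24 h (SD, n = 8) and 85.3 ± 6.35 CPM at 4 h (n = 3). Slc2a1 had 86.6 ± 14.4 CPM at 24 h and 125 ± 13.2 CPM at 4 h, and Ddit4 had 78.1 ± 8.79 CPM at 24 h and 122 ± 9.74 CPM at 4 h. The levels at 24 h were 0.654, 0.695 and 0.643 of those at 4 h for Vegfa, Slc2a1 and Ddit4. Ldha had 421 ± 16.4 CPM at 24 h and 420 ± 12.9 at 4 h, and Gapdh had 1331 ± 66.0 CPM at 24 h and 1356 ± 30.6 CPM at 4 h, both with overlapping ranges.

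**Figure D5:**
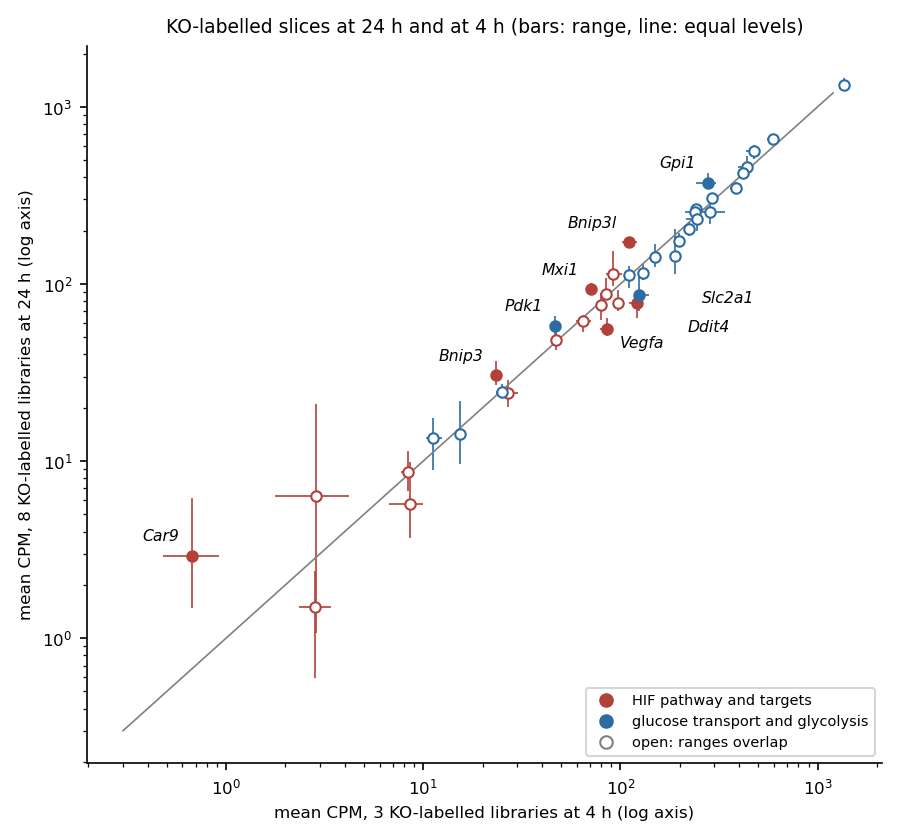
Mean CPM of each gene in the 8 KO-labelled libraries at 24 h (vertical log axis) against the 3 KO-labelled libraries at 4 h (horizontal log axis), with bars for the range over libraries and a line of equal levels. The 9 filled and named genes have ranges that do not overlap, 6 above the line and Vegfa, Ddit4 and Slc2a1 below it, and the other 31 are open.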

How the data were processed

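The 24 h table holds raw read counts per gene as deposited by the authors. The 4 h table holds a signal, deposited by the authors as read counts divided by a factor for each library; dividing by the worth of 1 read gave whole reads back for 100% of values, within 0.05. TopHat2, HTSeq, DESeq2 1.38.3 and GRCm38 (mm10) appear in the submitters' processing notes without their roles; the strand setting is not given in the sources used here.

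At 4 h, log2(value + 1) of genes with a mean of at least 10 was tested with limma 3.58.1 (mean-variance trend); at 24 h, counts were tested with edgeR 4.0.16 (quasi-likelihood, TMM scaling, filterByExpr) on all 14 libraries in 4 groups by label and sex. P-values were adjusted by Benjamini-Hochberg over all genes tested, with a threshold of 0.05, in R 4.3.3; DESeq2 1.42.0 was an alternative. Fold changes at 4 h are on the log2(value + 1) scale, and ± after one is its standard error. Scripts were tested on simulated data. Same-numbered 4 h libraries deviated together (r = 0.264, 0.140 and 0.175), beside -0.218 to 0.0638 between libraries of different numbers. The labels do not say whether the numbers pair libraries. The libraries that carried Xist reads were those numbered 1, so a shared sex and a shared number cannot be told apart there.

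The members and the lists were chosen with earlier results of these data known. Genes named per comparison are the 6 with the smallest p at 4 h and in the averaged 24 h contrast, and the 3 with the smallest p elsewhere and in each further list; genes whose groups did not overlap and those used beside them were added after their values were seen. Exons of 11 members have annotated copies of at least 95% identity over 200 bases, on which at most 0.670% as many reads fell, so their counts may be split. Depth, given with the libraries, limits the genes of low level, and ranges of reads cover counting error only.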

Additional observations from a re-analysis of the deposited data

Results flagged for a closer look

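Within groups of 4 libraries at 24 h, 6 values of 80 groups and members tested stood apart from the other 3 by Dixon's criterion, which chance meets in about 1 in 20 groups. All 6 were in KO-labelled groups, the only groups large enough to test. Vegfa had 64.5 CPM in KO-labelled male 4, against 52.8 to 53.9 in the other KO-labelled males, and Mxi1 had 101 CPM in the same library, against 90.5 to 91.6. Epas1, the gene of HIF-2 alpha, had 108 CPM in KO-labelled male 1, against 81.5 to 84.0, and Hk2 had 21.7 CPM there, against 12.3 to 13.6. Eno2, the neuronal enolase, had 254 CPM in KO-labelled male 3, against 234 to 235. Bnip3l had 177 CPM in KO-labelled female 2, the library whose sex-linked reads go against its label, against 167 to 169 in the other KO-labelled females.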

How the results depend on the processing

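Of 114 alternative counts of members past the threshold, 107 stayed at 0 and 7 did not. With the replicate number as a block, 1 member passed at 4 h, Pfkp, among 38 genes. Whether the numbers pair the 4 h libraries is not given in the labels. The block changed no other member's call at 4 h, and gave 0 members in every 24 h contrast. At 24 h, libraries with the same number in their titles did not deviate together (r from -0.117 to 0.0867). The sample descriptions number the KO-labelled females and Het males 2 and 3 otherwise, and pairing by those numbers was not tested. Leaving out 1 library at a time gave 0 to 1 members at 4 h (Hk1, without KO-labelled library 2, among 211 genes) and 0 in every 24 h contrast. Without the filter on low counts, edgeR called 3 members in the averaged contrast (Aldoc, Car12 and Slc2a1, among 263 genes, against 0 with the filter), 3 in females (Car12, Car9 and Slc2a1, among 180), 2 in males (Aldoc and Pfkp, among 220), 2 for the difference between the sexes' contrasts (Car9 and Pfkp, among 165) and 2 between the sexes (Car12 and Pfkp, among 215); the cause was not tested. DESeq2 called 146 genes at 4 h, against 7. Each named fold change was refitted under each alternative, and 428 of these refits kept the sign and side of the threshold, 13 newly passed and 3 changed sign. Without the 3 libraries with choroid plexus RNA, chosen after seeing the data, Car12 was -0.15 in the averaged contrast and 0.067 between the sexes, and Slc2a3 was 0.033 between the sexes. Leaving out 1 library moved Pfkp in males between -0.54 and 0.16. Depth limits Ankrd37, Car9 and Car12 most.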
